A study of Rattus norvegicus with 8 samples.

Results

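Rat primordial germ cell-like cells (PGCLC), made in culture from stem cells to stand for the earliest cells of the germline, were compared after and before 3 days in aggregates with gonadal somatic cells. The comparison takes the expression values of both groups from the authors' deposited table and covers every gene that the table names, 22228 in all, in 4 of the 8 libraries of the series. The group PGCLC_d3ag3 holds cells recovered by flow cytometry from aggregates of 5000 day 3 PGCLC and 50000 somatic cells of E15.5 female rat gonads, after removal of cells positive for c-KIT, a germ cell surface marker. The aggregates were kept for 3 days in N2B27 medium with 5% KSR (a serum replacement). The group PGCLC_d3 holds day 3 cells that were sorted before any aggregation, after 3 days in N2B27 with BMP4 at 500 ng/ml, SCF at 100 ng/ml, EGF at 50 ng/ml and rat LIF at 1000 U/ml. Each group has 2 libraries, and both were sorted for tdTomato carried by a Nanos3-T2A-tdTomato reporter, although the genotype label reads wild type. Cells of both groups are of the strain Crlj:WI and came from embryonic stem cells (ESC) grown on mouse embryonic fibroblasts with PD0325901 at 1 µM, CHIR99021 at 3 µM and rat LIF at 1000 U/ml. They then spent 60 hours as epiblast-like cells (EpiLC) with activin A at 20 ng/ml, bFGF at 12 ng/ml and 1% KSR. The 2 ESC and 2 EpiLC libraries enter here only through the shared estimate of spread and as levels beside those of the PGCLC.

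The protocol names BMP4, SCF, EGF and LIF for the PGCLC medium and not for the aggregate medium. Effects of 3 more days, of the changed medium and of the somatic cells therefore cannot be told apart, and neither can a change within cells from the survival or sorting of some of them. In bulk samples such as these, fewer cells of a type and less RNA per cell cannot be told apart either. Whether the replicates were separate cultures is not labelled, and the p-values then measure only how far these samples spread, possibly for technical reasons.

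In mammals, primordial germ cells are set apart in the early embryo under BMP signals, through a network that includes the transcription regulators PRDM1, PRDM14 and TFAP2C. They migrate to the forming gonad, where they switch on a second set of genes for germ granules, the piRNA pathway that silences transposons, and meiosis. Many of these genes carry promoters that are methylated or held silent by a Polycomb complex (PRC1.6) in other cells, and DAZL, an RNA-binding protein, is needed for mouse germ cells to settle into their germline fate in the gonad.

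The expression of the sort gene was higher in the aggregated cells. Nanos3, a translational regulator of early germ cells, was at 17.2 and 15.6 TPM in PGCLC_d3ag3, against 11 and 10.7 TPM in PGCLC_d3 (log2 difference 0.56, SE 0.126, limma adjusted p = 0.00287). Kit, the receptor for SCF that marks germ cells, was at 267 and 286 TPM in PGCLC_d3ag3, against 398 and 399 TPM in PGCLC_d3, high in all 4 libraries (log2 difference -0.53, limma adjusted p = 0.00202). Defining markers of the somatic cells that had been mixed in were low in both groups, and some were higher after aggregation. The granulosa cell factor Foxl2 was at 0.289 and 0.461 TPM in PGCLC_d3ag3, against 0 and 0.0688 TPM in PGCLC_d3. The gonadal factor Wt1 was at 1.28 and 1.17 TPM in PGCLC_d3ag3, against 0.0396 and 0.0614 TPM in PGCLC_d3. Nr5a1, a regulator of steroid-producing gonadal cells, was at 0.867 and 0.747 TPM after aggregation and 0.0541 and 0.0935 TPM before it. Wt1 and Nr5a1 passed the test as higher at these low levels. Gata4, of the same supporting cell list, was called higher too (log2 difference 0.71). Over the 18 listed supporting cell markers the summed level was 69.5 and 68 TPM in PGCLC_d3ag3, against 83.7 and 70.1 TPM in PGCLC_d3. Of the tested supporting cell markers, 6 of 14 were higher and 3 lower, the Müllerian hormone receptor gene Amhr2 leading with 3.74 and 4.26 TPM in PGCLC_d3ag3, against 0.43 and 0.398 TPM in PGCLC_d3. Wt1 and Fgf9 had the next largest rises, and Irx3, Wnt6 and Irx5 were the members called lower. The summed level of the 17 interstitial and stromal markers was 36.4 and 44.3 TPM in PGCLC_d3ag3, against 29.1 and 32.7 TPM in PGCLC_d3, with 4 of 12 higher and 4 lower. Among them, the matrix gene Postn was at 6.7 and 8.45 TPM in PGCLC_d3ag3, against 0.134 and 0.309 TPM in PGCLC_d3, and the collagen gene Col1a1 at 0.312 and 0.631 TPM in PGCLC_d3ag3, against 0.483 and 1.8 TPM in PGCLC_d3.

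Markers of other cell types that a gonad holds differed in both directions. The haemoglobin gene Hba-a1, a marker of red blood cells, was at 44.1 and 35.5 TPM in PGCLC_d3ag3, against 2.12 and 0.754 TPM in PGCLC_d3, and Hbb was at 4.81 and 11.3 TPM in PGCLC_d3ag3 and listed at 0 in both PGCLC_d3 libraries. The leukocyte gene Ptprc was at 0.0541 and 0 TPM in PGCLC_d3ag3 and listed at 0 in PGCLC_d3. Of the 5 tested blood and immune markers 2 were higher and 2 lower. Of 7 tested endothelial markers 2 were higher and 4 lower, and the summed level of all 12 listed was 194 and 190.2 TPM in PGCLC_d3ag3, against 98.4 and 83 TPM in PGCLC_d3. The adhesion gene Pecam1, also made by early germ cells, was at 135 and 138 TPM in PGCLC_d3ag3, against 18.3 and 17.3 TPM in PGCLC_d3. Pecam1 made up most of the summed endothelial level after aggregation, and the rest of that sum was lower than before it. Only 2 of 7 mesonephros markers could be tested, with 1 higher and 1 lower, and of 6 tested coelomic epithelium markers 1 was higher and 1 lower. Whether these levels came from gonadal cells or from the PGCLC themselves was not tested. The part of any gonadal cells in the results that follow was not tested either.

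TPM, a read share per transcript length, is scaled to one total in every library and keeps no read counts. From the steps between the lowest values, which are worth single reads, the PGCLC_d3ag3 libraries were 2.17 and 2.38 times as deep as ESC replicate 1, and the PGCLC_d3 libraries 1.32 and 1.14 times. Replicates correlated across tested genes with Pearson's r of 0.9946 in PGCLC_d3ag3 and 0.9975 in PGCLC_d3, genes not being independent replicates. Genes with a TPM above 0 numbered 15931 and 17129 in PGCLC_d3ag3 and 16733 and 16654 in PGCLC_d3.

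Over the whole table, more genes were lower than higher after aggregation, while rises outnumbered falls among the changes of a log2 difference of at least 4. Of 13571 genes with a TPM of at least 1 in at least 2 libraries, 9560 passed the test (limma, Benjamini-Hochberg adjusted p under 0.05), which is 70.4%. Of the tested genes, 3483 (25.7%) were higher in PGCLC_d3ag3 and 6077 (44.8%) lower. This split depends on the scaling: the median gene differed by -0.178 on the log2(TPM+1) scale, and with that shift removed by median-of-ratios rescaling 4782 genes were higher and 4773 lower. Quantile normalization gave 4700 higher and 4719 lower. Changes near -0.178 are therefore at the level of the median gene, and the medians of gene lists are given with that shift in them. With a log2 difference of at least 1 added, 889 genes were higher (6.55% of those tested) and 2099 lower. List counts cover members that passed the filter on low values. A germline gene near 0 before aggregation passed it through the groups in which it is high, so such counts describe the lists and support nothing further. At a log2 difference of at least 4 there were 48 rises and 17 falls, and at 5 there were 24 and 6. With 70.4% of all tested genes called, a call by itself says little about any one list, so the size of the change is given throughout. Counts within lists are to be read against the 25.7% higher and 44.8% lower of all tested genes. Log2 differences are of log2(TPM+1), which understates the change of genes with low values.

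**Figure D1:**
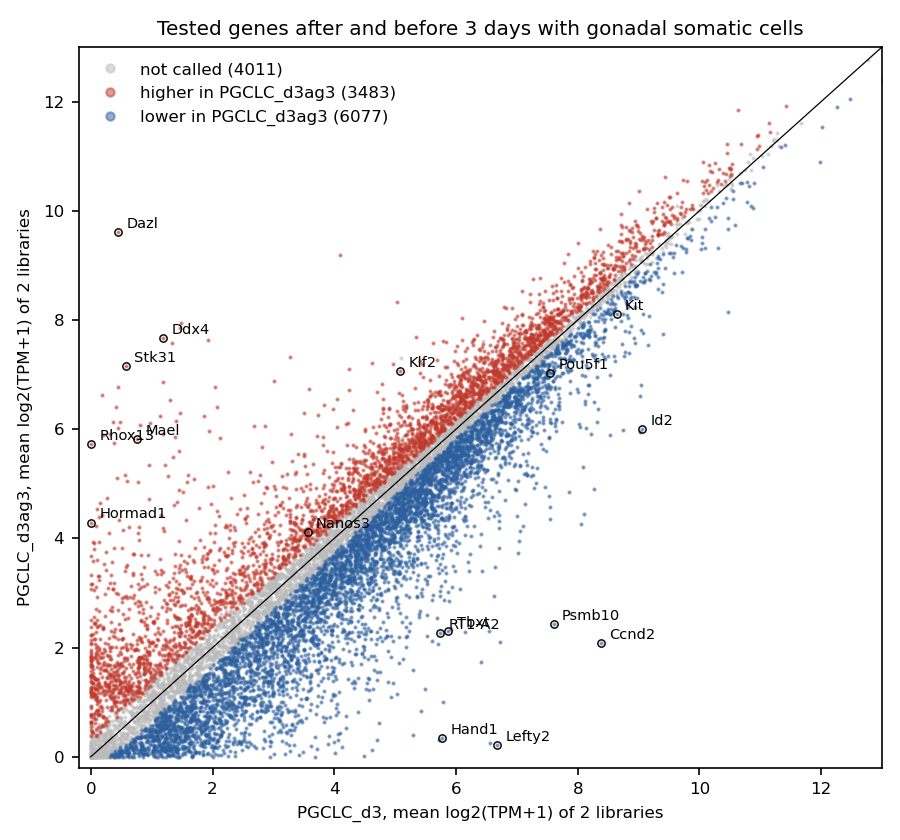
Mean log2(TPM+1) of every tested gene in PGCLC_d3ag3 (vertical axis, 2 libraries) against PGCLC_d3 (horizontal axis, 2 libraries), with genes called higher in red (3483), called lower in blue (6077) and not called in grey. The line marks equal levels. Dazl, Ddx4, Stk31, Rhox13 and Hormad1 sit far above it, close to the left edge, while Lefty2, Hand1, Ccnd2 and Psmb10 sit far below, and Nanos3, Kit and Pou5f1 lie near it.

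The largest rise was that of Dazl. It was at 763 and 806 TPM in PGCLC_d3ag3, against 0.39 and 0.347 TPM in PGCLC_d3 (log2 difference 9.16, SE 0.105, limma adjusted p = 5.9e-11), and both PGCLC_d3ag3 libraries lay above all 6 others of the series. Ddx4, which encodes the germ cell helicase VASA, was at 204 and 201 TPM in PGCLC_d3ag3, against 1.3 and 1.28 TPM in PGCLC_d3 (log2 difference 6.47, SE 0.0961, limma adjusted p = 3.5e-10). Stk31, a tudor domain kinase-like gene of germ cells, was at 138 and 145 TPM in PGCLC_d3ag3, against 0.649 and 0.353 TPM in PGCLC_d3 (log2 difference 6.57, SE 0.132, limma adjusted p = 2.0e-09). The libraries of the 2 groups lay far apart for all of these genes, with replicates close together. Groups that did not overlap were common, at 85.3% of all tested genes, so it is the size of these differences that sets them apart. Among the 15 largest rises with a mean of at least 10 TPM were further germline genes. Tex101, which encodes a germ cell surface protein, was at 118 and 114 TPM in PGCLC_d3ag3, against 1.1 and 1.47 TPM in PGCLC_d3. The homeobox gene Rhox13, known from mouse germ cells, was at 53.3 and 50.3 TPM in PGCLC_d3ag3 and listed at 0 in both PGCLC_d3 libraries. Gpat2, an acyltransferase gene of the piRNA pathway, was at 65.5 and 73.3 TPM in PGCLC_d3ag3, against 0.328 and 0.455 TPM in PGCLC_d3, and Sohlh2, a transcription factor gene of early oocytes and spermatogonia, at 57.4 and 60.8 TPM after aggregation and 0.233 and 0.269 TPM before it. Cyct, the testis form of cytochrome c, was at 54 and 62.7 TPM after aggregation and 0.134 and 0.154 TPM before it, and Fam9b at 55.1 and 50.6 TPM after aggregation and 0.552 and 0.0913 TPM before it.

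The remaining large rises include near-identical copies whose reads the counting could have split. The alpha-tubulin genes Tuba3a and Tuba3b were at 229 and 231 TPM in PGCLC_d3ag3, against 1.35 and 2.26 TPM in PGCLC_d3 for the first, and 95.5 and 100.3 TPM after aggregation and 0.122 and 0.141 TPM before it for the second. Tex19.1 and Tex19.2, paralogs that help hold back transposons, were at 184 and 198 TPM after aggregation and 1.63 and 1.4 TPM before it for Tex19.1, and 189.9 and 208 TPM after aggregation and 2.6 and 3.05 TPM before it for Tex19.2. The Y-linked RNA-binding protein gene Rbmy1j was at 83.3 and 84.2 TPM in PGCLC_d3ag3, against 0.113 and 0.584 TPM in PGCLC_d3. Fcrla, known best from B cells, was at 245 and 244 TPM after aggregation and 2.9 and 1.02 TPM before it, and it was also high in the earlier stages, with 339 and 319 TPM in ESC and 181 and 166 TPM in EpiLC.

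Genes of gonadal germ cells rose almost as a whole. In that list 24 of 26 tested members were higher in PGCLC_d3ag3 and 2 lower, with a list median of 3.94 against -0.178 over all tested genes, and 24 of 26 is 92.3% against a background of 25.7%. The list's members were chosen with earlier results of these data known, so this count describes them and is no independent evidence of direction. The exceptions were Tdrd5 and Tdrd7, tudor domain genes of germ granules, with Tdrd5 at 0.849 and 1.48 TPM in PGCLC_d3ag3, against 5.36 and 5.46 TPM in PGCLC_d3 and Tdrd7 at 4.73 and 4.47 TPM after aggregation and 10.7 and 10.04 TPM before it (log2 differences -1.58 and -1.02). Of the 24 that rose, 20 had both PGCLC_d3ag3 libraries above the 6 others. Brdt, a testis bromodomain gene, was at 76.4 and 72.7 TPM in PGCLC_d3ag3, against 2.69 and 2.54 TPM in PGCLC_d3 (log2 difference 4.39, limma adjusted p = 2.6e-08). Slc25a31, a germline ADP/ATP carrier gene, was at 18 and 20.5 TPM in PGCLC_d3ag3, against 0.411 and 0.357 TPM in PGCLC_d3, and Taf7l, a germ cell transcription factor subunit gene, at 11.2 and 15.7 TPM after aggregation and 0.328 and 0.265 TPM before it. Nanos2, a regulator of male germ cells, rose to 1.02 and 1.62 TPM only, against 0.249 and 0.0718 TPM in PGCLC_d3 (log2 difference 0.99, limma adjusted p = 3.1e-04).

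The piRNA pathway, in which PIWI proteins carry small RNAs against transposons, rose in large part. Of its listed genes, 21 of 25 tested members were higher in PGCLC_d3ag3 (84%, against 25.7% of all tested genes). Another 2 were lower, and the list median was 1.91. Mov10l1, the helicase that starts piRNA processing, was at 69.1 and 71.8 TPM in PGCLC_d3ag3, against 1.55 and 1.75 TPM in PGCLC_d3 (log2 difference 4.75, limma adjusted p = 2.4e-09). Mael, a germ granule gene, was at 58.9 and 52 TPM in PGCLC_d3ag3, against 0.525 and 0.876 TPM in PGCLC_d3 (log2 difference 5.06, limma adjusted p = 2.1e-08). The PIWI genes themselves differed in level: Piwil2 reached 63.6 and 59.5 TPM in PGCLC_d3ag3, against 2.79 and 2.93 TPM in PGCLC_d3, while Piwil4, the PIWI gene of the fetal male nucleus in mouse, was at 2.76 and 3.2 TPM after aggregation and 0.497 and 0.319 TPM before it. Their tudor partners also differed, with Tdrd1 at 31.7 and 32.2 TPM in PGCLC_d3ag3, against 0.67 and 0.363 TPM in PGCLC_d3 and Tdrd9, the partner of PIWIL4 in mouse, at 1.63 and 2.54 TPM after aggregation and 0.0345 and 0.0133 TPM before it. Several genes stand in both of these lists, so the lists are not separate counts.

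Most tested meiosis genes were higher. Of the list, 28 of 37 tested members were higher in PGCLC_d3ag3 (75.7%, against 25.7% of all tested genes) and 1 lower, with a list median of 1.47. Tex12, of the synaptonemal complex, was at 79.5 and 69.4 TPM in PGCLC_d3ag3, against 1.16 and 1.22 TPM in PGCLC_d3 (log2 difference 5.10, limma adjusted p = 3.4e-09). Smc1b and Rec8, which encode meiotic cohesin subunits, were at 42.5 and 36.6 TPM in PGCLC_d3ag3, against 0.962 and 0.931 TPM in PGCLC_d3 for Smc1b, and 26.6 and 22.5 TPM after aggregation and 1.62 and 1.71 TPM before it for Rec8. Sycp3, an axis gene, was at 30.5 and 33.4 TPM in PGCLC_d3ag3, against 1.13 and 0.375 TPM in PGCLC_d3, and Sycp1, of the transverse filaments, at 13.1 and 15 TPM after aggregation and 0.0512 and 0.0295 TPM before it. Hormad1, which marks unsynapsed axes, was at 18.7 and 18.4 TPM in PGCLC_d3ag3 and listed at 0 in both PGCLC_d3 libraries. Stra8, the retinoic acid target that opens meiosis, did not reach the level needed for testing, at 0.326 and 0.629 TPM in PGCLC_d3ag3, against 0 and 0.0688 TPM in PGCLC_d3. The only member called lower was Ythdc2, a helicase gene needed for the meiotic programme in mouse, at 5.48 and 6.16 TPM in PGCLC_d3ag3, against 10.3 and 12.7 TPM in PGCLC_d3 (log2 difference -0.87, limma adjusted p = 4.5e-04).

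**Figure D2:**
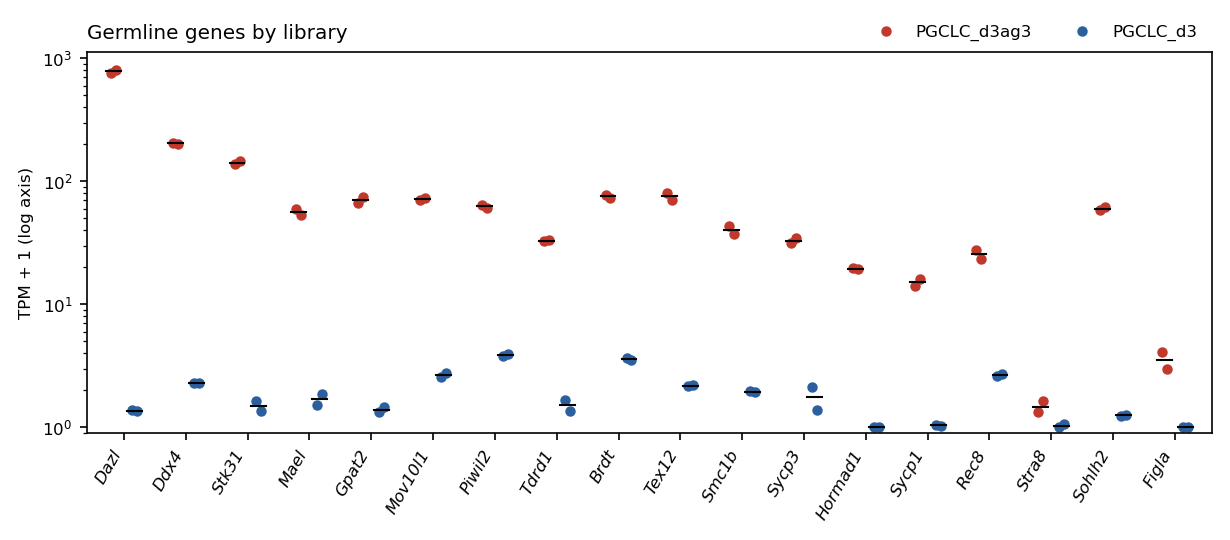
TPM + 1 on a log axis for 18 germline genes, by library, with PGCLC_d3ag3 (red) left of PGCLC_d3 (blue). Points are libraries and the bars mark group means. Dazl stands highest after aggregation, at 763 and 806 TPM, while Stra8 and Figla stay low, at no more than 0.629 and 3.12 TPM.

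Promoters of the risen germline genes were read for a short motif. The E-box cacgtg, which is its own reverse complement, is the site of the MGA and MAX subunits of PRC1.6, and the windows of 4 genes that hold it are printed with that of Dazl, which lacks it and rose most. Each runs 5′ to 3′ from 250 bases before to 50 after the annotated start, from RefSeq on build GRCr8, with the motif in capitals. The files themselves were made on rn7, so these coordinates apply to GRCr8 alone. The windows are Stk31 (chr4:79701491-79701790, plus strand), Ddx4 (chr2:46015902-46016201, minus strand), Mael (chr13:81029574-81029873, minus strand), Mov10l1 (chr7:121949572-121949871, plus strand) and Dazl (chr9:18193113-18193412, plus strand).
Stk31: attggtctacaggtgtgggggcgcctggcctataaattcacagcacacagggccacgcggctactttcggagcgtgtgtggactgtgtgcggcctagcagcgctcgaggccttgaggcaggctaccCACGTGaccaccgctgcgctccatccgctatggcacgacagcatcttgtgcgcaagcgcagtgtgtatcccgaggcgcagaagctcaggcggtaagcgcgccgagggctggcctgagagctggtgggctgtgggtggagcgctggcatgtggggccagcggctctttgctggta
Ddx4: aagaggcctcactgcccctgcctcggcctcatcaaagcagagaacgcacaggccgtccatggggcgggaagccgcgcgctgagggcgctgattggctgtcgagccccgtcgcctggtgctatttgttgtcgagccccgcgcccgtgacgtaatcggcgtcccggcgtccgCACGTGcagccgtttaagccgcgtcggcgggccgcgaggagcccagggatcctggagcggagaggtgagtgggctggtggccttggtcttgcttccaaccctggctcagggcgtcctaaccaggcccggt
Mael: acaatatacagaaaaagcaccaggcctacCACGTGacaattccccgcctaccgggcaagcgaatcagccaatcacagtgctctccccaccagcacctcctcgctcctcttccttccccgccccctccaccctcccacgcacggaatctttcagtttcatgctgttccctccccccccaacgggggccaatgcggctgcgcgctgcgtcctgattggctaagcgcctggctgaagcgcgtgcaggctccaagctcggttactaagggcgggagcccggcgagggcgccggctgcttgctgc
Mov10l1: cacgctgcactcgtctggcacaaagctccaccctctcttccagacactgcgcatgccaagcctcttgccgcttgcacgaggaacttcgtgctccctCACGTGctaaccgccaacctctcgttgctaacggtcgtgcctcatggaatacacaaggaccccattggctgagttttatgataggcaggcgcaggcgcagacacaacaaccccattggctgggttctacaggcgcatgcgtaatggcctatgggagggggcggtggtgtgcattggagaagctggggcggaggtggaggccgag
Dazl: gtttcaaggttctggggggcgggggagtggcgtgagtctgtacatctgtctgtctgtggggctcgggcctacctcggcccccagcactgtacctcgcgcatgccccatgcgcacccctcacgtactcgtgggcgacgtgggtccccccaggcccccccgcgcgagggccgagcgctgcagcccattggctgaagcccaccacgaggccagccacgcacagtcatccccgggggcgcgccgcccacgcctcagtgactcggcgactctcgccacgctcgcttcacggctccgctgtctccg
The motif begins 124 bases before the start in Stk31, 80 in Ddx4, 221 in Mael and 154 in Mov10l1. The windows hold 23 CpG in Stk31, 32 in Ddx4, 22 in Mael, 18 in Mov10l1 and 31 in Dazl, against a median of 21 over all windows.

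Among 9626 tested genes with exactly 1 window, 9.72% hold CACGTG. The share is 8.43% of the genes called higher and 10.5% of those called lower. Of the gonadal germ cell genes called higher, 11 of 18 windows hold it (61.1%), of the piRNA genes 7 of 14 (50.0%) and of the meiosis genes 5 of 21 (23.8%). These lists share genes, most of the piRNA windows with the motif being gonadal germ cell windows too. With each gene counted once, 15 of 41 windows of the 3 lists hold it (36.6%). Of all genes higher by a log2 difference of at least 3, 16 of 60 windows hold it (26.7%), and among those outside the 3 germline lists 3 of 38 (7.89%). A second motif, GCGGGA on either strand, is the core of sites for E2F proteins, E2F6 being a further PRC1.6 subunit, and stands in 36.6% of all windows. It is in 15 of 21 windows of meiosis genes called higher (71.4%), in 7 of 18 of the gonadal germ cell genes (38.9%) and in 3 of 14 of the piRNA genes (21.4%). For the 3 lists together this is 18 of 41 windows (43.9%). Over all tested members, called or not, the shares were close, but most of these windows are counted in both, so closeness had to follow. Of 27 such meiosis windows 19 hold GCGGGA (70.4%) and 7 hold CACGTG (25.9%), and CACGTG is in 11 of 20 gonadal germ cell windows (55%) and 8 of 18 piRNA windows (44.4%). Genes higher by a log2 difference of at least 2 had a median of 11 CpG in the window. These are matches of letters, described without a test, and say nothing of whether a factor is bound.

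Subunits of PRC1.6 and other repressors moved in both directions. Higher were 35.3% and lower 52.9% of those tested, not far from the 25.7% and 44.8% of all tested genes. Among 17 tested genes of PRC1.6 and other germline gene repressors, 6 were higher and 9 lower, with a list median of -0.15 that turned to 0.07 after median-of-ratios rescaling (7 higher, 5 lower and a median of 0.07). Quantile normalization gave 5 higher, 8 lower and a median of -0.05. Mga was at 12.6 and 10.4 TPM in PGCLC_d3ag3, against 31.1 and 31.7 TPM in PGCLC_d3 (log2 difference -1.38, limma adjusted p = 1.3e-05). E2f6 was at 48 and 49.1 TPM in PGCLC_d3ag3, against 60.8 and 64.6 TPM in PGCLC_d3 (log2 difference -0.36, limma adjusted p = 0.00145), a call that ended after median-of-ratios rescaling with adjusted p = 0.0586. Pcgf6, which defines the complex, was higher, at 114 and 124 TPM in PGCLC_d3ag3, against 97.7 and 97.2 TPM in PGCLC_d3 (log2 difference 0.28, limma adjusted p = 0.00274). The catalytic partner Ring1 was lower, at 14.8 and 14 TPM after aggregation and 46.6 and 51.2 TPM before it, and Ehmt2, an H3K9 methyltransferase gene, was lower as well, at 63.9 and 70.4 TPM after aggregation and 147 and 138 TPM before it. Hdac2 and Yaf2 were higher, Hdac2 at 571 and 613 TPM after aggregation and 302 and 322 TPM before it and Yaf2 at 123 and 132 TPM after aggregation and 61.2 and 57.6 TPM before it.

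Among genes known from oocytes, most of those tested were higher, while the male germline list had shares near those of all tested genes. In the oocyte list, 9 of 12 tested members were higher in PGCLC_d3ag3 (75%, against 25.7% of all tested genes). The other 3 were lower, and the list median was 0.51. Figla, a transcription factor gene of early oocytes, was at 3.12 and 1.98 TPM in PGCLC_d3ag3 and listed at 0 in both PGCLC_d3 libraries, and Nobox was at 0.315 and 0.543 TPM in PGCLC_d3ag3, against 0.0578 and 0.0666 TPM in PGCLC_d3. Sohlh1 was at 0.871 and 0.223 TPM in PGCLC_d3ag3, against 0.0578 and 0 TPM in PGCLC_d3, under the level needed for testing. Zp3, of the egg coat, was at 1.38 and 2.52 TPM after aggregation and 0.413 and 0.477 TPM before it. In the male germline list, 3 of 15 tested members were higher in PGCLC_d3ag3 and 8 lower, with a list median of -0.41. The lower ones are 53.3% of that list, near the 44.8% of all tested genes. Median-of-ratios rescaling gave 5 higher, 8 lower and a median of -0.19. Dnmt3l, a methylation cofactor of male germ cells, was at 0.455 and 0.178 TPM in PGCLC_d3ag3, against 0.856 and 0.123 TPM in PGCLC_d3 and was not called. The largest fall of that list was of Lefty1, taken up with the NODAL targets, and its largest rise was that of Rhox13. Of 6 tested Y-linked genes 3 were higher and 2 lower. Uba1y was at 6.13 and 10.2 TPM in PGCLC_d3ag3, against 0 and 0.0303 TPM in PGCLC_d3, Usp9y at 4.1 and 3.67 TPM after aggregation and 0.0461 and 0.0852 TPM before it and Ddx3y at 17 and 20.1 TPM after aggregation and 4.16 and 5.7 TPM before it, while Kdm5d was at 10.1 and 7.64 TPM in PGCLC_d3ag3, against 26.9 and 28.8 TPM in PGCLC_d3 and Uty at 4.41 and 3.13 TPM after aggregation and 11.9 and 11.4 TPM before it. The added gonadal cells were female. Y-linked genes have close copies on the X chromosome, with which reads could be shared.

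The first germ cell programme stayed on, and its split into higher and lower genes was near that of all called genes. In the early germ cell list, 5 of 16 tested members were higher in PGCLC_d3ag3 and 11 lower, with a list median of -0.73. The lower ones are 68.8% of the list, against 44.8% of all tested genes. All 16 were called, and the 31.2% that were higher are near the 36.4% of all called genes. With median-of-ratios rescaling the list had 5 higher, 10 lower and a median of -0.51. Prdm1, which encodes the repressor BLIMP1, was at 22.2 and 23.4 TPM in PGCLC_d3ag3, against 67.6 and 65.4 TPM in PGCLC_d3 (log2 difference -1.50, limma adjusted p = 3.1e-06). Prdm14, which represses DNA methyltransferase genes in mouse, was at 39.7 and 35.4 TPM in PGCLC_d3ag3, against 88.7 and 83.4 TPM in PGCLC_d3 (log2 difference -1.18, limma adjusted p = 7.9e-06), and Tfap2c, the third factor of that network, at 307 and 294.3 TPM after aggregation and 487 and 498 TPM before it (log2 difference -0.71, limma adjusted p = 5.8e-06). Sox17, which takes part in human germ cell specification, was at 9.41 and 10.7 TPM in PGCLC_d3ag3, against 57.5 and 45 TPM in PGCLC_d3, and the migration receptor gene Cxcr4 at 21.7 and 16.3 TPM after aggregation and 50.1 and 46.8 TPM before it. Higher were Klf2 at 119.8 and 147 TPM in PGCLC_d3ag3, against 29.8 and 36.3 TPM in PGCLC_d3 (log2 difference 1.98, limma adjusted p = 3.9e-07), the alkaline phosphatase gene Alpl at 159 and 187 TPM in PGCLC_d3ag3, against 60.1 and 64.9 TPM in PGCLC_d3, and Ifitm1, a membrane protein gene of early germ cells, at 291 and 309 TPM after aggregation and 118 and 101 TPM before it. Dnd1, which encodes an RNA-binding factor that germ cells need to survive, was at 277 and 275 TPM in PGCLC_d3ag3, against 372 and 375 TPM in PGCLC_d3 (log2 difference -0.43, limma adjusted p = 0.00403), with adjusted p = 0.0826 after median-of-ratios rescaling. Dppa3, also called Stella, was at 467 and 509.9 TPM in PGCLC_d3ag3, against 375 and 389 TPM in PGCLC_d3 (log2 difference 0.35, limma adjusted p = 0.0345), and its call ended without any 1 of the 4 libraries (adjusted p between 0.0582 and 0.161), with log2 differences of 0.29 to 0.42 that were about as large.

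The central pluripotency factors Pou5f1, Sox2 and Nanog differed by small amounts, while some naive and formative genes changed further. Pou5f1, which encodes OCT4, was at 127 and 133 TPM in PGCLC_d3ag3, against 181 and 191 TPM in PGCLC_d3 (log2 difference -0.51, limma adjusted p = 3.4e-05). Nanog was at 142 and 157 TPM in PGCLC_d3ag3, against 148 and 169 TPM in PGCLC_d3 and was not called (adjusted p = 0.49). Sox2 was at 195 and 182 TPM in PGCLC_d3ag3, against 217 and 227 TPM in PGCLC_d3 (log2 difference -0.24, limma adjusted p = 0.0407), a call lost after median-of-ratios rescaling (adjusted p = 0.825) and without any 1 of the 4 libraries (0.0519 to 0.177, with log2 differences of -0.29 to -0.19). Of the general pluripotency list, 2 of 15 tested members were higher in PGCLC_d3ag3 and 8 lower (53.3%, near the 44.8% of all tested genes). The list median was -0.24. The RNA-binding protein gene Lin28a was higher, at 199.99 and 229 TPM after aggregation and 175 and 157 TPM before it, and the NODAL co-receptor gene Tdgf1 lower, at 14.7 and 14.3 TPM after aggregation and 33.7 and 37.9 TPM before it. Of 15 tested naive pluripotency genes 6 were higher and 5 lower, with a median of -0.09 that turned to 0.13 after median-of-ratios rescaling. The nuclear receptor gene Nr0b1 fell furthest there, to 1.36 and 1.75 TPM in PGCLC_d3ag3, against 29 and 31.6 TPM in PGCLC_d3. Klf4 was at 1.38 and 2.45 TPM in PGCLC_d3ag3, against 2.31 and 2.34 TPM in PGCLC_d3 and was not called, and the threonine dehydrogenase gene Tdh was higher, at 10.6 and 9.71 TPM after aggregation and 2.94 and 2.65 TPM before it. Among formative and primed genes, 1 of 18 tested members were higher in PGCLC_d3ag3 and 10 lower, with a list median of -0.34, against 2 higher, 6 lower and a median of -0.17 after quantile normalization. The lower ones are 55.6% of the list, near the 44.8% of all tested genes. The member that rose was Otx2, a factor of the formative epiblast, at 8.2 and 7.42 TPM in PGCLC_d3ag3, against 1.54 and 1.18 TPM in PGCLC_d3 (log2 difference 1.90, limma adjusted p = 1.1e-06), which was at 0.432 and 0.363 TPM in ESC and 74.6 and 73.9 TPM in EpiLC. Pou3f1, another formative factor, was at 4.22 and 4.88 TPM in PGCLC_d3ag3, against 26.9 and 26.7 TPM in PGCLC_d3 (log2 difference -2.33, limma adjusted p = 7.2e-08).

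BMP targets fell. Of the list, 0 of 15 tested members were higher in PGCLC_d3ag3 and 14 lower, with a list median of -2.31 against -0.178 over all tested genes, and 14 of 15 is 93.3% against a background of 44.8%. The ID genes encode inhibitors of helix-loop-helix factors and answer directly to BMP. Id2 was at 59.9 and 67.1 TPM in PGCLC_d3ag3, against 503 and 563 TPM in PGCLC_d3 (log2 difference -3.05, SE 0.0747, limma adjusted p = 3.4e-09). Id1 was at 59 and 59 TPM in PGCLC_d3ag3, against 278 and 317 TPM in PGCLC_d3 (log2 difference -2.31, limma adjusted p = 7.7e-07). Id3, in contrast, was at 761 and 756 TPM in PGCLC_d3ag3, against 840.02 and 905 TPM in PGCLC_d3 and was not called (adjusted p = 0.0597). The homeobox genes Msx1 and Msx2 fell to 27.9 and 31.6 TPM in PGCLC_d3ag3, against 173 and 177 TPM in PGCLC_d3 for Msx1, and 33.8 and 38.2 TPM after aggregation and 133 and 152 TPM before it for Msx2. Bambi, a BMP-induced decoy receptor gene, was at 27.3 and 28.4 TPM after aggregation and 217 and 246 TPM before it. Of the 14 that fell, 13 had both PGCLC_d3 libraries above the 6 others, and 1 had both PGCLC_d3ag3 libraries below them.

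NODAL targets include the largest fall of all. Lefty2, a secreted NODAL inhibitor, was at 0.196 and 0.119 TPM in PGCLC_d3ag3, against 87 and 117 TPM in PGCLC_d3 (log2 difference -6.46, SE 0.204, limma adjusted p = 1.4e-08). Its relative Lefty1 was at 21.6 and 19.9 TPM in PGCLC_d3ag3, against 257 and 295 TPM in PGCLC_d3 (log2 difference -3.67, limma adjusted p = 1.3e-08). In the list, 1 of 12 tested members were higher in PGCLC_d3ag3 and 9 lower (75%, against 44.8% of all tested genes), with a list median of -1.15. The exception was the ligand gene Gdf3 at 25.7 and 27.2 TPM in PGCLC_d3ag3, against 12.7 and 12.3 TPM in PGCLC_d3 (log2 difference 1.02, limma adjusted p = 2.7e-06).

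FGF and ERK targets and LIF targets fell as well. Among FGF and ERK targets, 2 of 20 tested members were higher in PGCLC_d3ag3 and 15 lower (75%, against 44.8% of all tested genes). The list median was -1.33. Phlda1 was at 18.4 and 18.1 TPM in PGCLC_d3ag3, against 267 and 259.7 TPM in PGCLC_d3 (log2 difference -3.78, limma adjusted p = 2.3e-09), and the ephrin receptor gene Epha2 at 3.39 and 2.7 TPM after aggregation and 34 and 36.7 TPM before it. Myc, which drives growth, was at 2 and 2.9 TPM in PGCLC_d3ag3, against 23.5 and 26.2 TPM in PGCLC_d3 (log2 difference -2.92, limma adjusted p = 1.4e-07). The ligand gene Fgf8 was at 2.76 and 3.93 TPM in PGCLC_d3ag3, against 118 and 92.1 TPM in PGCLC_d3 (log2 difference -4.61, limma adjusted p = 1.3e-07). Against the list stood Fos, an immediate early gene, at 263 and 262 TPM in PGCLC_d3ag3, against 65.2 and 69.6 TPM in PGCLC_d3 (log2 difference 1.95, limma adjusted p = 8.7e-04). Among LIF and STAT3 targets, 3 of 15 tested members were higher in PGCLC_d3ag3 and 10 lower (66.7%, against 44.8% of all tested genes). The list median was -0.85. Socs3, the feedback inhibitor of LIF signalling, was at 29.97 and 33.3 TPM in PGCLC_d3ag3, against 80.9 and 88.8 TPM in PGCLC_d3 (log2 difference -1.40, limma adjusted p = 1.6e-06), Bcl3 at 2.17 and 2.53 TPM after aggregation and 11 and 14.2 TPM before it, and Stat3 itself at 12.7 and 16.2 TPM after aggregation and 54.3 and 55.8 TPM before it. The receptor gene Lifr was higher, at 2.6 and 3.69 TPM after aggregation and 1.08 and 1.14 TPM before it.

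WNT targets fell with exceptions, and the counts of both the WNT and the NOTCH list depended on the scaling. Of WNT targets, 2 of 19 tested members were higher in PGCLC_d3ag3 and 15 lower (78.9%, against 44.8% of all tested genes). The list median was -0.60. Median-of-ratios rescaling gave 2 higher, 11 lower and a median of -0.42. Quantile normalization gave 2 higher, 10 lower and a median of -0.29. Notum, a secreted inhibitor of WNT, was at 2.53 and 3.95 TPM in PGCLC_d3ag3, against 47.6 and 55 TPM in PGCLC_d3 (log2 difference -3.64, limma adjusted p = 1.8e-07), and the cyclin gene Ccnd1 at 1.25 and 1.16 TPM after aggregation and 15.48 and 14.9 TPM before it. The ligand gene Wnt5a was at 0.646 and 0.935 TPM in PGCLC_d3ag3, against 45.1 and 39 TPM in PGCLC_d3 (log2 difference -4.59, limma adjusted p = 1.7e-08). Wif1, which also binds and inhibits WNT, was higher, at 30.8 and 28.4 TPM in PGCLC_d3ag3, against 2.58 and 3.03 TPM in PGCLC_d3 (log2 difference 3.01, limma adjusted p = 8.0e-07). Of NOTCH genes, 1 of 10 tested members were higher in PGCLC_d3ag3 and 7 lower, with a list median of -0.56, against 2 higher, 5 lower and a median of -0.38 after median-of-ratios rescaling and 2 higher, 4 lower and a median of -0.36 after quantile normalization. Hes1, a repressor induced by NOTCH, was higher, at 192 and 186 TPM in PGCLC_d3ag3, against 49 and 47.4 TPM in PGCLC_d3 (log2 difference 1.95, limma adjusted p = 1.7e-08), and the receptor gene Notch3 lower, at 0.501 and 1.42 TPM after aggregation and 12.7 and 11.6 TPM before it.

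Genes of the KIT pathway and of the retinoic acid response split both ways. Of the KIT pathway, 3 of 14 tested members were higher in PGCLC_d3ag3 (21.4%) and 9 lower (64.3%), with a list median of -0.55. Over all tested genes 25.7% were higher and 44.8% lower. The adaptor genes Gab1 and Gab2 differed in direction, Gab1 at 65.6 and 70.6 TPM in PGCLC_d3ag3, against 17.5 and 18.1 TPM in PGCLC_d3 (log2 difference 1.88, limma adjusted p = 6.1e-08) and Gab2 at 2.93 and 2.4 TPM in PGCLC_d3ag3, against 11.8 and 11.4 TPM in PGCLC_d3 (log2 difference -1.79, limma adjusted p = 2.1e-06). Of retinoic acid genes, 8 of 13 tested members were higher in PGCLC_d3ag3 (61.5%, against 25.7% of all tested genes) and 4 lower, with a list median of 0.78. Rec8, a known target in germ cells, led the rises. The receptor gene Rara was higher too, at 30.8 and 37.1 TPM in PGCLC_d3ag3, against 13.2 and 15 TPM in PGCLC_d3. The receptor gene Rxra was lower, at 2.25 and 2.01 TPM in PGCLC_d3ag3, against 15.52 and 13.6 TPM in PGCLC_d3 (log2 difference -2.31, limma adjusted p = 6.7e-07), as was the retinal reductase gene Dhrs3 at 2.23 and 1.61 TPM after aggregation and 7.65 and 12.6 TPM before it. Aldh1a2, which makes retinoic acid and was listed as a coelomic epithelium marker, was higher, at 8.41 and 9.97 TPM in PGCLC_d3ag3, against 1.38 and 0.889 TPM in PGCLC_d3.

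Mesoderm and extraembryonic genes fell to low levels. Of primitive streak and mesoderm genes, 1 of 14 tested members were higher in PGCLC_d3ag3 and 12 lower (85.7%, against 44.8% of all tested genes). The list median was -1.40. Tbxt, which encodes BRACHYURY, was at 2.94 and 5.21 TPM in PGCLC_d3ag3, against 64 and 52 TPM in PGCLC_d3 (log2 difference -3.57, limma adjusted p = 4.5e-07). The caudal homeobox gene Cdx2 was at 1.48 and 1.21 TPM in PGCLC_d3ag3, against 28.1 and 18.6 TPM in PGCLC_d3 (log2 difference -3.35, limma adjusted p = 3.5e-07), and Hand1, a factor of lateral mesoderm and trophoblast, at 0.0512 and 0.517 TPM in PGCLC_d3ag3, against 53.6 and 53.4 TPM in PGCLC_d3 (log2 difference -5.43, limma adjusted p = 1.7e-08). Against them Gsc, an organiser gene, was higher, at 7.68 and 7.22 TPM in PGCLC_d3ag3, against 0.314 and 0.272 TPM in PGCLC_d3 (log2 difference 2.71, limma adjusted p = 1.8e-07). In the trophoblast and amnion list, 3 of 16 tested members were higher in PGCLC_d3ag3 and 12 lower (75%, against 44.8% of all tested genes). The list median was -1.98, with Dlx3 at 1.94 and 1.94 TPM after aggregation and 25.6 and 25.9 TPM before it. Several genes, Hand1 and Cdx2 among them, stand in more than 1 of these lists. HOX genes were low in both groups, with 10 of 29 genes tested, 2 higher and 3 lower. The highest, Hoxb1, was at 2.01 and 1.48 TPM after aggregation and 0.645 and 0.533 TPM before it.

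**Figure D3:**
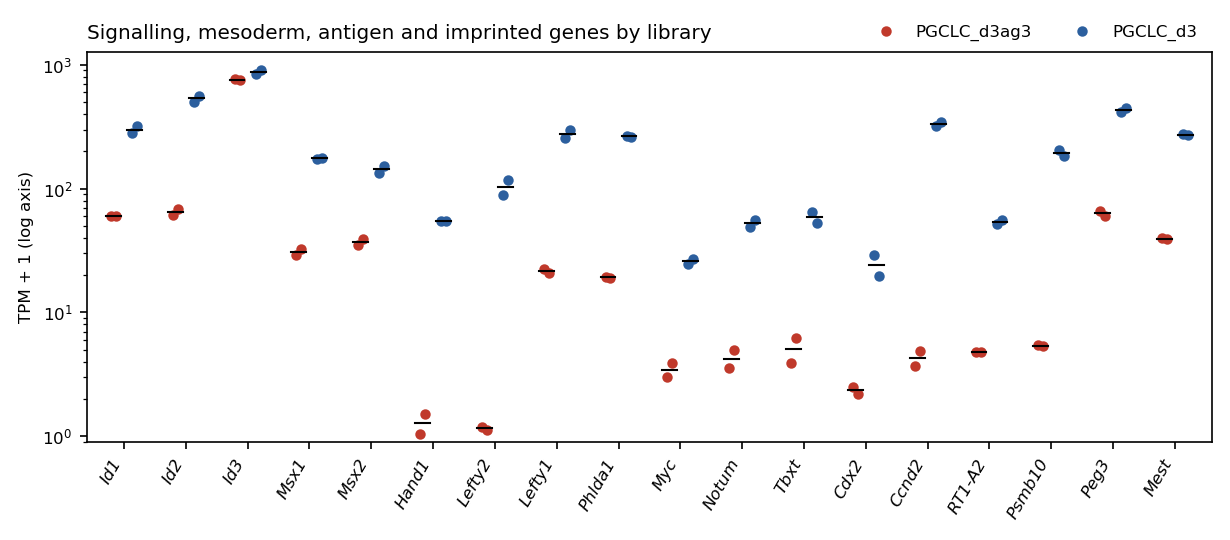
TPM + 1 on a log axis for 18 genes of BMP, NODAL, ERK and WNT signalling, mesoderm, cell cycle, antigen processing and imprinting, by library, with PGCLC_d3ag3 (red) left of PGCLC_d3 (blue). Points are libraries and the bars mark group means. Id3 lies close together in both groups, while Lefty2 and Hand1 drop below 1 TPM after aggregation.

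Other large falls were of unrelated kinds of gene. Ccnd2, a cyclin of the G1 phase, was at 2.69 and 3.88 TPM in PGCLC_d3ag3, against 319 and 347 TPM in PGCLC_d3 (log2 difference -6.30, SE 0.246, limma adjusted p = 4.8e-08). The neurofilament genes Nefm and Nefl were at 0 and 0.427 TPM in PGCLC_d3ag3, against 110.05 and 78.9 TPM in PGCLC_d3 for Nefm, and 0.381 and 0.274 TPM after aggregation and 39.9 and 36.9 TPM before it for Nefl. Tmprss2, a membrane protease gene, was at 0.26 and 0.224 TPM after aggregation and 59.8 and 44.9 TPM before it, the ubiquitin ligase gene Trim9 at 0.87 and 1.13 TPM after aggregation and 52.6 and 55.3 TPM before it, and Lrfn4, a neuronal adhesion gene, at 1.55 and 3.39 TPM after aggregation and 89.1 and 79.8 TPM before it. Calca, which encodes calcitonin peptides, was at 0.218 and 0.265 TPM in PGCLC_d3ag3, against 25.8 and 24.1 TPM in PGCLC_d3. Tmem132e was at 0 and 0.00835 TPM after aggregation and 23.9 and 19.2 TPM before it and Pdlim4, a cytoskeletal gene, at 1.14 and 1.63 TPM after aggregation and 44.3 and 43.6 TPM before it. Of the 15 largest falls, 14 had both PGCLC_d3 libraries above the 6 others, and 6 had both PGCLC_d3ag3 libraries below them.

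Genes that show antigens to T cells fell together. Of the immunoproteasome and antigen presentation list, 1 of 16 tested members were higher in PGCLC_d3ag3 and 15 lower (93.8%, against 44.8% of all tested genes). The list median was -2.13. Psmb10, an immunoproteasome subunit, was at 4.42 and 4.34 TPM in PGCLC_d3ag3, against 204 and 184 TPM in PGCLC_d3 (log2 difference -5.18, SE 0.118, limma adjusted p = 2.4e-09). RT1-A2, a class I histocompatibility gene of the rat, was at 3.84 and 3.82 TPM in PGCLC_d3ag3, against 50.3 and 54.4 TPM in PGCLC_d3 (log2 difference -3.46, limma adjusted p = 6.1e-08). Class I genes are near-identical copies, and reads could be split among them. Tap1, which loads peptides onto class I molecules, was at 6.31 and 9.09 TPM in PGCLC_d3ag3, against 63.5 and 57 TPM in PGCLC_d3 (log2 difference -2.83, limma adjusted p = 1.9e-06). The member that rose, Cd74, of the class II pathway, was at 1.3 and 1.3 TPM after aggregation and 0.631 and 0.438 TPM before it. Of interferon response genes, 2 of 20 tested members were higher in PGCLC_d3ag3 and 15 lower (75%, against 44.8% of all tested genes), with a list median of -0.87. Among these Gbp2, an interferon-induced GTPase, was at 6.87 and 7.93 TPM in PGCLC_d3ag3, against 65.5 and 66.6 TPM in PGCLC_d3 (log2 difference -3.00, limma adjusted p = 1.7e-07), and Ifih1, a sensor of viral RNA, at 3.8 and 2.91 TPM after aggregation and 26.3 and 27 TPM before it.

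Imprinted genes, which germ cells strip of their parental marks, were lower with none called higher. Of the list, 0 of 21 tested members were higher in PGCLC_d3ag3 and 18 lower (85.7%, against 44.8% of all tested genes). The list median was -1.02. Peg3 was at 64.8 and 59.5 TPM in PGCLC_d3ag3, against 412 and 443 TPM in PGCLC_d3 (log2 difference -2.76, SE 0.106, limma adjusted p = 4.4e-08), and Mest at 38.9 and 37.9 TPM in PGCLC_d3ag3, against 273 and 269.6 TPM in PGCLC_d3 (log2 difference -2.79, limma adjusted p = 2.1e-09). The placental growth inhibitor Phlda2 was at 0.183 and 0.112 TPM after aggregation and 12.9 and 9.86 TPM before it, and Cdkn1c, an imprinted CDK inhibitor, at 3.36 and 3.95 TPM after aggregation and 10.4 and 10.1 TPM before it (log2 difference -1.28). Zfp57, which protects imprints in mouse, was at 0.689 and 0.92 TPM in PGCLC_d3ag3, against 10.9 and 11.4 TPM in PGCLC_d3 (log2 difference -2.75, limma adjusted p = 6.4e-08). Genes expressed from the maternal copy and genes expressed from the paternal copy were both among the falls, Phlda2 and Peg3 being 1 of each kind.

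The log2 differences of the methyltransferase genes Dnmt1, Dnmt3a and Dnmt3b were at most 0.49 in size, which understates the change of Dnmt3a at its low level. Other genes of the methylation list moved further, Zfp57 among them. The maintenance methyltransferase gene Dnmt1 was at 29.996 and 37.1 TPM in PGCLC_d3ag3, against 43.1 and 44.5 TPM in PGCLC_d3 (log2 difference -0.38, limma adjusted p = 0.00587), with adjusted p = 0.105 after median-of-ratios rescaling and 0.109 after quantile normalization. Its partner Uhrf1 was at 6.52 and 9.77 TPM in PGCLC_d3ag3, against 7.83 and 7.26 TPM in PGCLC_d3 and was not called. The de novo enzyme gene Dnmt3b was at 25.1 and 30.02 TPM in PGCLC_d3ag3, against 33.8 and 27.6 TPM in PGCLC_d3 and was not called, and Dnmt3a was at 1.43 and 1.88 TPM in PGCLC_d3ag3, against 2.72 and 2.7 TPM in PGCLC_d3 (log2 difference -0.49, limma adjusted p = 0.00572), a call lost after quantile normalization (adjusted p = 0.131). Hells and Cdca7, which together open chromatin for methylation, were higher, Hells at 195 and 204 TPM after aggregation and 105 and 110.4 TPM before it and Cdca7 at 133 and 147 TPM after aggregation and 71.9 and 68.2 TPM before it. Of the methylation list, 2 of 12 tested members were higher in PGCLC_d3ag3 and 5 lower, with a list median of -0.21, which quantile normalization turned to 0.03. Among demethylation and base excision genes, 2 of 13 tested members were higher in PGCLC_d3ag3 and 7 lower, with a list median of -0.25, which quantile normalization also turned to 0.03. After median-of-ratios rescaling the medians were -0.09 for the methylation list and -0.04 for the demethylation list. The oxidases Tet1 and Tet2 were not called, Tet1 at 17.3 and 18 TPM in PGCLC_d3ag3, against 16.7 and 17.9 TPM in PGCLC_d3 and Tet2 at 9.06 and 10.2 TPM after aggregation and 10.3 and 11 TPM before it. The glycosylase gene Tdg was lower, at 74.4 and 82.8 TPM after aggregation and 134 and 136 TPM before it, and Gadd45b higher, at 86.9 and 78.4 TPM after aggregation and 28.2 and 29.3 TPM before it. Of Polycomb and histone methylation genes, 4 of 19 tested members were higher in PGCLC_d3ag3 (21.1%) and 11 lower (57.9%). Over all tested genes the shares were 25.7% and 44.8%. The list median was -0.24, against 7 higher, 8 lower and a median of -0.03 after median-of-ratios rescaling. Quantile normalization gave 6 higher, 8 lower and a median of -0.15. Ezh2, the H3K27 methyltransferase, was at 93.2 and 84.7 TPM in PGCLC_d3ag3, against 42.8 and 44.4 TPM in PGCLC_d3 (log2 difference 1.01, limma adjusted p = 1.0e-06), Kdm2b, a CpG-binding PRC1 subunit, at 66.3 and 84.9 TPM after aggregation and 35.5 and 37.7 TPM before it, and Kdm6a, which removes H3K27 methylation, at 8.86 and 8.38 TPM after aggregation and 28.5 and 26.5 TPM before it.

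Cholesterol synthesis rose as a pathway. Of the list, 23 of 25 tested members were higher in PGCLC_d3ag3 and 0 lower, with a list median of 1.01, and 23 of 25 is 92.0% against a background of 25.7%. Hsd17b7 was at 28.9 and 29.8 TPM in PGCLC_d3ag3, against 6.43 and 6.46 TPM in PGCLC_d3 (log2 difference 2.03, SE 0.114, limma adjusted p = 3.8e-07). The sensor gene Insig1 was at 63.8 and 65.7 TPM in PGCLC_d3ag3, against 15.4 and 15.6 TPM in PGCLC_d3 (log2 difference 2.00, limma adjusted p = 5.9e-08), and Sqle, the squalene oxidase, at 185 and 199.99 TPM in PGCLC_d3ag3, against 59.2 and 53.5 TPM in PGCLC_d3 (log2 difference 1.75, limma adjusted p = 6.4e-08). Over the 25 members the log2 differences ran from -0.08 to 2.03. Of the 23 that rose, 14 had both PGCLC_d3 libraries below the 6 others and 12 had both PGCLC_d3ag3 libraries above them.

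Oxidative phosphorylation rose by small amounts. Of the list, 28 of 37 tested members were higher in PGCLC_d3ag3 (75.7%, against 25.7% of all tested genes) and 1 lower. The list median was 0.36, with 35 higher, 0 lower and a median of 0.57 after median-of-ratios rescaling. Quantile normalization gave 26 higher, 2 lower and a median of 0.28. The complex I genes Ndufa5 and Ndufa1 led, Ndufa5 at 679.8 and 652 TPM in PGCLC_d3ag3, against 356 and 364 TPM in PGCLC_d3 and Ndufa1 at 192 and 180.3 TPM after aggregation and 99.7 and 103 TPM before it. Of glycolysis genes, 13 of 21 tested members were higher in PGCLC_d3ag3 (61.9%, against 25.7% of all tested genes) and 6 lower, with a list median of 0.43. The aldolase gene Aldoc was at 31 and 32.9 TPM in PGCLC_d3ag3, against 4.95 and 5.78 TPM in PGCLC_d3 (log2 difference 2.37, limma adjusted p = 5.7e-07), and Pdk1, which holds pyruvate out of the mitochondrion, at 13 and 16.8 TPM after aggregation and 2.29 and 2.69 TPM before it. The triose phosphate isomerase gene Tpi1 was at 310.05 and 283 TPM after aggregation and 113 and 112 TPM before it. The glucose transporter genes Slc2a3 and Slc2a1 were lower, Slc2a3 at 113 and 121 TPM in PGCLC_d3ag3, against 228 and 240.02 TPM in PGCLC_d3 and Slc2a1 at 119 and 143 TPM after aggregation and 234 and 195 TPM before it. Of mitochondrial ribosomal protein genes, 14 of 23 tested members were higher in PGCLC_d3ag3 (60.9%, against 25.7% of all tested genes) and 2 lower. The list median was 0.23, with Mrps22 at 210.1 and 196 TPM after aggregation and 105 and 106 TPM before it. Cytosolic ribosomal protein genes differed little: 8 of 27 were higher and 6 lower, with a median of 0.01, against 16 higher, 0 lower and a median of 0.23 after median-of-ratios rescaling and 3 higher, 10 lower and a median of -0.08 after quantile normalization.

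Genes of amino acid supply and of the ATF4 stress response fell. Of the ATF4 list, 2 of 18 tested members were higher in PGCLC_d3ag3 and 16 lower (88.9%, against 44.8% of all tested genes). The list median was -1.29. Chac1, which breaks down glutathione, was at 12.4 and 16.8 TPM in PGCLC_d3ag3, against 128 and 133 TPM in PGCLC_d3 (log2 difference -3.09, limma adjusted p = 5.9e-07), Trib3, an ATF4-induced pseudokinase gene, at 22.4 and 25.4 TPM after aggregation and 131 and 148 TPM before it, and the transcription factor gene Cebpb at 26.6 and 26.3 TPM in PGCLC_d3ag3, against 184 and 183 TPM in PGCLC_d3 (log2 difference -2.75, limma adjusted p = 4.5e-09). The exceptions were Nupr1, a stress-induced chromatin factor gene, at 6.09 and 4.84 TPM after aggregation and 0.146 and 0.336 TPM before it, and Ddit4, an inhibitor of mTOR, at 59.3 and 29 TPM after aggregation and 20.6 and 20.4 TPM before it. Of serine and one-carbon genes, 3 of 16 tested members were higher in PGCLC_d3ag3 and 11 lower (68.8%, against 44.8% of all tested genes). The list median was -0.58. Phgdh, the first enzyme of serine synthesis, was at 154 and 168 TPM in PGCLC_d3ag3, against 347 and 375 TPM in PGCLC_d3 (log2 difference -1.16, limma adjusted p = 2.6e-07), and the mitochondrial folate enzyme gene Mthfd2 at 104 and 118 TPM after aggregation and 285 and 298 TPM before it. Of 16 unfolded protein and heat shock genes, 4 were higher and 7 lower, against 7 higher, 4 lower and a median of 0.12 after median-of-ratios rescaling. Quantile normalization gave 4 higher, 8 lower and a median of -0.19. Herpud1, of protein degradation at the endoplasmic reticulum, was at 34 and 36.9 TPM after aggregation and 136 and 139 TPM before it, and Hsp90aa1 was higher, at 1041 and 1079.9 TPM after aggregation and 613 and 611 TPM before it.

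Targets of p53 were mostly lower, and regulators of cell death moved both ways. Of p53 targets, 1 of 19 tested members were higher in PGCLC_d3ag3 and 16 lower (84.2%, against 44.8% of all tested genes). The list median was -0.96. Phlda3 was at 6.78 and 10.9 TPM in PGCLC_d3ag3, against 34.2 and 36.6 TPM in PGCLC_d3 (log2 difference -1.92, limma adjusted p = 2.5e-05), and the death receptor gene Tnfrsf10b at 0.166 and 0.101 TPM after aggregation and 2.88 and 3.33 TPM before it. Sesn1, of the sestrins, was higher, at 44.6 and 50.3 TPM after aggregation and 14.3 and 13.2 TPM before it. Of apoptosis regulators, 3 of 17 tested members were higher in PGCLC_d3ag3 (17.6%) and 10 lower (58.8%), beside 25.7% and 44.8% of all tested genes. The list median was -0.40. Rescaling by median of ratios gave 6 higher, 7 lower and a median of -0.19, and quantile normalization 5 higher, 8 lower and a median of -0.30. The pore-forming gene Bak1 was at 3.15 and 2.25 TPM in PGCLC_d3ag3, against 20.4 and 18.8 TPM in PGCLC_d3 (log2 difference -2.49, limma adjusted p = 3.0e-07) and the protective gene Bcl2 at 2.18 and 1.72 TPM after aggregation and 7.35 and 7.62 TPM before it, both lower. Bik, a death-promoting gene, was higher, at 127 and 118 TPM after aggregation and 41.1 and 45 TPM before it. Immediate early genes split, with 29.4% higher and 58.8% lower, not far from the 25.7% and 44.8% of all tested genes. In that list, 5 of 17 tested members were higher in PGCLC_d3ag3 and 10 lower, with a list median of -0.46. Egr2 rose with Fos, to 17.9 and 17.3 TPM in PGCLC_d3ag3, against 3.4 and 4.06 TPM in PGCLC_d3, and Junb was lower, at 39.7 and 40.4 TPM after aggregation and 121 and 129 TPM before it.

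Among genes of the G1 phase, Ccnd2 fell furthest, followed by Myc and Ccnd1. Of G1 cyclins and CDK inhibitors, 4 of 22 tested members were higher in PGCLC_d3ag3 (18.2%) and 11 lower (50%), with a list median of -0.26. Both shares are not far from the 25.7% and 44.8% of all tested genes. The CDK4 inhibitor genes Cdkn2a and Cdkn2d were higher, Cdkn2a at 5.86 and 5.99 TPM in PGCLC_d3ag3, against 1.8 and 1.04 TPM in PGCLC_d3 and Cdkn2d at 23 and 24 TPM after aggregation and 7.66 and 7.63 TPM before it. Of 20 DNA replication genes 7 were higher and 10 lower, against 9 higher, 6 lower and a median of 0.07 after median-of-ratios rescaling. Quantile normalization gave 8 higher, 9 lower and a median of -0.10. Pcna, the replication clamp, was at 864 and 918 TPM after aggregation and 693 and 703 TPM before it. Of 23 genes of the G2 phase and mitosis 8 were higher and 7 lower, with a median of 0.05, against 14 higher, 3 lower and a median of 0.27 after median-of-ratios rescaling. Quantile normalization gave 8 higher, 8 lower and a median of 0.035. Mki67, a proliferation marker, was at 50.3 and 40.8 TPM in PGCLC_d3ag3, against 83.6 and 84.4 TPM in PGCLC_d3 (log2 difference -0.88, limma adjusted p = 5.5e-05), and the kinase gene Ttk was higher, at 194 and 198 TPM after aggregation and 142 and 142 TPM before it.

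Adhesion and matrix genes fell, with a few surface proteins higher. Of adhesion and migration genes, 3 of 17 tested members were higher in PGCLC_d3ag3 and 14 lower (82.4%, against 44.8% of all tested genes). The list median was -0.81. Pecam1 led the rises (log2 difference 2.87, SE 0.0643, limma adjusted p = 2.4e-09), with the tetraspanin gene Cd9 at 281 and 265 TPM after aggregation and 145 and 126 TPM before it and the epithelial adhesion gene Epcam at 688 and 701 TPM in PGCLC_d3ag3, against 424 and 417 TPM in PGCLC_d3. Lower were the surface protein gene Cd24 at 17.2 and 23.6 TPM in PGCLC_d3ag3, against 126 and 129 TPM in PGCLC_d3 (log2 difference -2.60, limma adjusted p = 1.6e-07), the integrin gene Itgav at 0.957 and 1.48 TPM after aggregation and 5.73 and 6.05 TPM before it, and Fut4, which makes the SSEA1 sugar, at 0.125 and 0.241 TPM after aggregation and 2.16 and 2.07 TPM before it. Of matrix genes, 0 of 15 tested members were higher in PGCLC_d3ag3 and 12 lower (80%, against 44.8% of all tested genes). The list median was -0.78. The basement membrane collagen gene Col4a1 was at 0.671 and 0.413 TPM in PGCLC_d3ag3, against 27.7 and 23.6 TPM in PGCLC_d3 (log2 difference -4.11, limma adjusted p = 2.1e-08). Its partner Col4a2 was at 0.325 and 0.56 TPM after aggregation and 19 and 15.8 TPM before it.

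**Figure D4:**
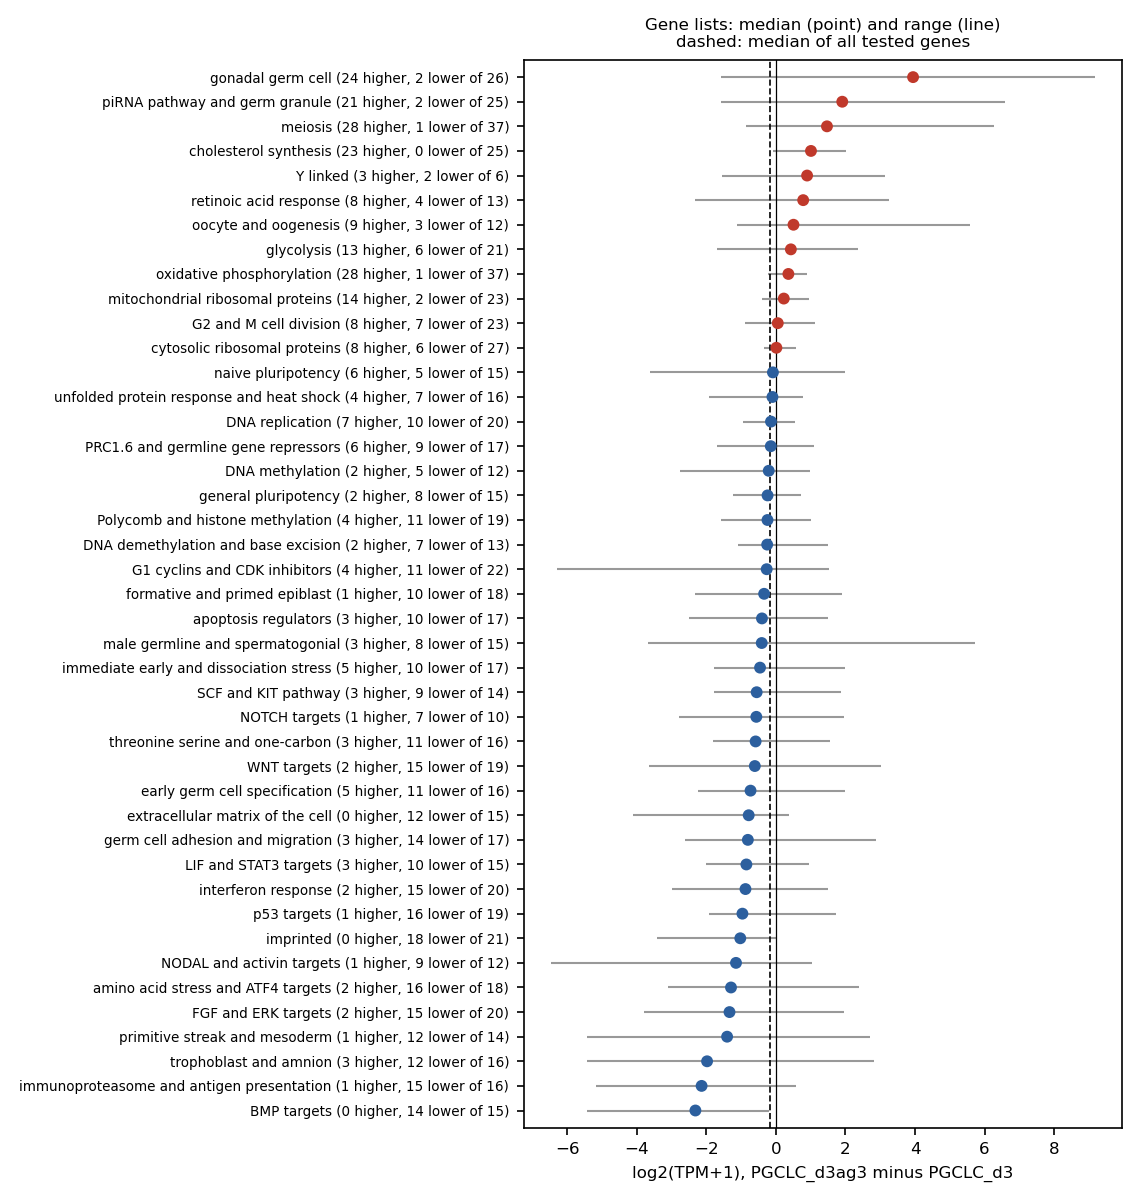
For each of 43 gene lists, the median (point) and the range (line) of the log2(TPM+1) difference, PGCLC_d3ag3 minus PGCLC_d3, over its tested members, with the counts called higher and lower beside its name. The dashed line is the median of all tested genes, -0.178. Gonadal germ cell, piRNA and meiosis lists lie highest and BMP targets, antigen presentation and trophoblast lists lowest.

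Levels in the earlier stages show that many of these differences also involve a low or a high point at day 3. Of the 889 genes higher by a log2 difference of at least 1, 621 had both PGCLC_d3ag3 libraries above the 6 others, 346 had both PGCLC_d3 libraries below them, and 150 had both. Over all tested genes, 2643 of 13571 had PGCLC_d3ag3 above the others and 1295 had PGCLC_d3 below them. The 889 genes were chosen for PGCLC_d3ag3 above PGCLC_d3, which by itself raises both counts. No excess can be read from setting them beside all tested genes. Of the 15 largest rises, 14 had both PGCLC_d3 libraries below the 6 others. Ddx4 was at 51.7 and 57.6 TPM in ESC and 162 and 134 TPM in EpiLC, and Tex19.1 at 319 and 311 TPM in ESC and 167 and 124 TPM in EpiLC, so that their PGCLC_d3 level was a low point between higher ones. Sohlh2 was at 2.35 and 2.85 TPM in ESC and 104 and 85 TPM in EpiLC, and after aggregation it was below its EpiLC level. Dazl was at 2.22 and 2.75 TPM in ESC and 13.6 and 13.6 TPM in EpiLC, Tex101 at 2.01 and 2.86 TPM in ESC and 3.65 and 2.01 TPM in EpiLC, and Rhox13 at 0.291 and 0.708 TPM in ESC and 0.166 and 0.129 TPM in EpiLC, all far under their PGCLC_d3ag3 levels.

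Of the 2099 genes lower by a log2 difference of at least 1, 1257 had both PGCLC_d3 libraries above the 6 others, 951 had both PGCLC_d3ag3 libraries below them, and 324 had both. Over all tested genes these counts were 3670 and 2832 of 13571. Choosing genes for PGCLC_d3 above PGCLC_d3ag3 raises both counts here too, so they show no excess either. Id2 was at 38.1 and 36.7 TPM in ESC and 65.2 and 66.1 TPM in EpiLC, Ccnd2 at 0.847 and 1.55 TPM in ESC and 3.2 and 6.11 TPM in EpiLC, and Peg3 at 8.55 and 10.9 TPM in ESC and 12 and 13.2 TPM in EpiLC, so that their PGCLC_d3 levels were peaks. Mest differs, at 172 and 193 TPM in ESC and 2066 and 2015 TPM in EpiLC, and its PGCLC_d3ag3 level was the lowest of the 4 groups. These comparisons share the PGCLC libraries and are given as levels, with no test.

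**Figure D5:**
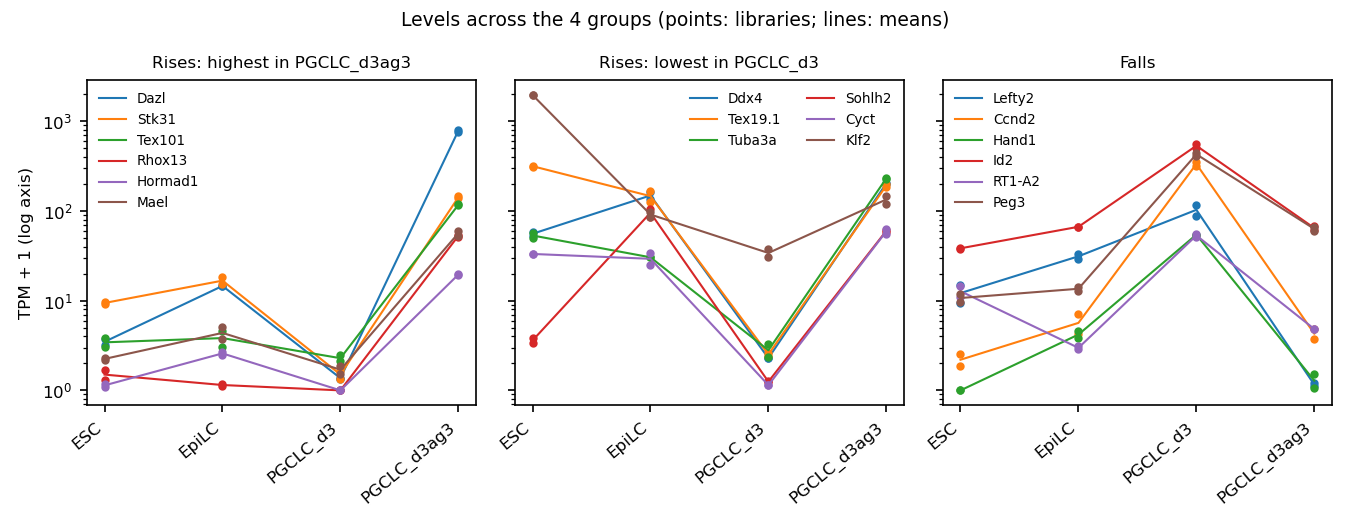
TPM + 1 on a log axis in ESC, EpiLC, PGCLC_d3 and PGCLC_d3ag3 for 6 genes that were highest after aggregation (left), 6 that were lowest at PGCLC_d3 (middle) and 6 that fell (right). Points are libraries and lines join group means. Ddx4, Tex19.1, Tuba3a, Cyct and Sohlh2 dip at PGCLC_d3, while Dazl and Rhox13 stand out after aggregation, and Ccnd2, Hand1, Id2, RT1-A2 and Peg3 peak at PGCLC_d3.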

How the data were processed

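The deposited table holds log2(TPM+1) per gene and library, made by the authors. Per the submitters' processing notes, bcl2fastq 2.20, cutadapt 1.1.6, HISAT2 2.1.0 and featureCounts of Subread 1.6.5 were used with rat build rn7. RNA was purified with PicoPure columns, amplified with SMART-Seq v4 and made into libraries with KAPA Hyper Prep, per the labels' protocols. Of 33294 rows, 11066 have no gene name and were left out.

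From these values, limma 3.58.1 in R 4.3.3 (lmFit, eBayes with trend, 2-sided) fitted all 8 libraries of 4 groups, on 13571 genes with a TPM of at least 1 in at least 2 libraries, with 4 residual degrees of freedom. Genes were called at a Benjamini-Hochberg adjusted p under 0.05. TPM values are the deposited log2 values turned back with a pseudocount of 1. The fit and the depth estimate were tested on simulated data. Depth was estimated relative to one library, so read totals are unknown. In genes with few reads, replicates differed by more than counting noise (mean chi-square per gene 2.46 in PGCLC_d3ag3 over 450 genes, chi-square p = 3.3e-57, and 1.21 in PGCLC_d3 over 302 genes, p = 0.00644), so each library was counted once.

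The members of the comparison, the 50 gene lists and the rule for named genes were chosen with earlier results of these data known. Genes named in the text were drawn from 3 kinds, and not every gene of each kind is named. The first is the 15 largest called rises and the 15 largest called falls (non-overlapping libraries, 10 TPM or more on average where higher, no clone-type or locus-type symbols). The others are a set listed by name and, in each list, up to 3 called members that rose most and 3 that fell most. Of the listed symbols, 16 were not analysed here, and further members did not pass the filter on low values and were not tested. Promoters came from RefSeq on GRCr8, 250 bases before to 50 after the start, for 9626 of 13571 tested genes with exactly 1 window.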

Additional observations from a re-analysis of the deposited data

How the results depend on the processing

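Each alternative changed 1 choice of the fit. The counts of genes called, 3483 higher and 6077 lower, stayed within 1.5 times under every scaling, filter and pseudocount tried and with a robust prior, with only the PGCLC groups fitted, and without any 1 library (2921 to 3387 higher, 5273 to 6008 lower). They fell to 1259 and 2832 when tested against a log2 difference of 0.5 with treat. With a log2 difference of at least 1, the counts of 889 and 2099 fell to 400 and 974 with a pseudocount of 5.

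Over 286 named genes and 14 alternatives, 3796 results kept their direction and their side of the threshold, 156 lost the call, 10 gained it and 13 reversed. The reversed ones were uncalled in the report. After median-of-ratios rescaling Nanog was at 0.13, Id3 at 0.014, Dnmt3b at 0.058 and Tet2 at 0.062. After quantile normalization Klf4 was at 0.070, Dnmt3b at 0.10 and Tet2 at 0.24. Without 1 library at a time, Nanog ran from -0.182 to 0.012, Klf4 from -0.48 to 0.0545, Dnmt3l from -0.503 to 0.221, Uhrf1 from -0.184 to 0.334 and Tet1 from -0.018 to 0.075. The cause was not tested.

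Replicate numbers did not pair the samples: deviations of same-numbered PGCLC_d3ag3 and PGCLC_d3 libraries correlated at -0.015. A fit with the replicate number as a block called 3488 genes higher and 6101 lower.

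With 2 libraries a group, single values such as Nanos2, Stra8 or Figla at a few TPM rest on few reads, and the depth of the libraries is known only in relation to each other. Median list differences changed sign after median-of-ratios rescaling for 5 of 50 lists and after quantile normalization for 7.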
